A study of Homo sapiens with 3 samples.

Results

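The heat shock factor HSF1 and 9 genes for cytosolic chaperones and their partners were followed across 3 arrays of HEK293T, a human cell line of embryonic kidney origin with the large T antigen of SV40. The members were HSF1, HSPA1A, HSPA1B, HSPA8, HSPH1, DNAJB1, BAG3, HSPB1, HSP90AA1 and HSP90AB1, fixed by name, and every probe set whose annotation gives one of these symbols, alone or among several, was taken. This gave 20 of the 22215 probe sets of the array that are not chip controls. By reading each gene from 1 probe set, the members are 10 of 13119 named genes. Every culture was transfected with dCas9VP160, in which a nuclease-dead Cas9 carries the activation domain VP160, and what differed was the guide or guides given. The first array carried RNA from cells given sgIL1RN1~3, which the labels direct to the promoter of IL1RN, the gene of the interleukin-1 receptor antagonist. The name sgIL1RN1~3 reads as several guides given together, and guide here means whatever a culture was given. On that reading, the number of guides and their target cannot be told apart against the controls. The second was from cells given sgTetO, directed to the TetO promoter, and the third from cells given sgTetOmut, a mutated form of sgTetO that served as non-targeting control. Untransfected and heat-shocked cells were not analysed here, the labels mention no selection of the transfected cells, and each guide was measured once, so no difference has a replicate error or a test.

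Heat shock proteins are molecular chaperones that bind unfolded protein chains and help them fold. HSF1 is the transcription factor that switches on their genes under protein-damaging stress, and in resting cells it is held back by the chaperones themselves. The HSP70 proteins work in a cycle in which J-domain proteins such as DNAJB1 stimulate their ATPase and exchange factors such as HSPH1 and BAG3 release the nucleotide, and clients can then pass to HSP90. Large T antigen of SV40, present in HEK293T cells, itself has a J domain that engages the constitutive HSP70 protein, HSC70, encoded by HSPA8.

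HSF1 binds heat shock elements, repeats of the triplet GAA in alternating orientation, and the stretches before the starts of member genes are shown here because HSF1 is known to act on chaperone genes through such elements near their starts. Windows from RefSeq (GRCh38.p14) were found for 9 of the 10 members, 14 windows in all, as some genes have several starts. The 250 bases before each start were searched for a pair of triplets, GAANNTTC or TTCNNGAA, both of which read the same on either strand. Such a pair was found before at least 1 start of 7 member genes, in 7 of the 14 windows, against 11.6% of all 35116 windows. A run of 3 triplets, GAANNTTCNNGAA or TTCNNGAANNTTC, which contains the pairs and overlaps them, was found for 3 genes, HSPA8, HSP90AB1 and HSP90AA1. This was in 3 of the 14 windows, against 0.441% of all windows. The windows of BAG3 and HSPH1 held neither, and that of HSPB1 held a pair at position -182 counted from the start, outside the bases printed here. HSPA8 and HSP90AB1 also had matches outside the bases printed, the first at -230 and at -165. A match describes the letters and does not show binding. The 150 bases before 1 start of each of 6 members follow, picked because this stretch holds a match. The windows of the other starts of HSP90AB1, HSP90AA1 and DNAJB1 held none and are not printed. Each stretch runs from 5′ to 3′ on the strand of the gene, with the matches that lie in it in capitals.
HSPA8 (chr11:123062137-123062286, - strand): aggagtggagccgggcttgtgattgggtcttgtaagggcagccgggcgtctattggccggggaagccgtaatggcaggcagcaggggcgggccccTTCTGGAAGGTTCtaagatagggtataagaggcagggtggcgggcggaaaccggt
HSP90AB1 (chr6:44247793-44247942, + strand): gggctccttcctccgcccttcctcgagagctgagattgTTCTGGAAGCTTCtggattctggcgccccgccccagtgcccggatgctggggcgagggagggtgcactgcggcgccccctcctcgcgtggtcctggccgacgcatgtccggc
HSP90AA1 (chr14:102087045-102087194, - strand): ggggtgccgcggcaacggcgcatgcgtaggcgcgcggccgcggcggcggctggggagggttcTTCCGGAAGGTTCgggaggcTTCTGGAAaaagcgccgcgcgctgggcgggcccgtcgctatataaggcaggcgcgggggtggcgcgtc
DNAJB1 (chr19:14518398-14518547, - strand): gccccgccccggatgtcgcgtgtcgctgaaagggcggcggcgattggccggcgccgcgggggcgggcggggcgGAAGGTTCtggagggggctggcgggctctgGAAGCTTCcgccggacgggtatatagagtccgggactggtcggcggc
HSPA1A (chr6:31815393-31815542, + strand): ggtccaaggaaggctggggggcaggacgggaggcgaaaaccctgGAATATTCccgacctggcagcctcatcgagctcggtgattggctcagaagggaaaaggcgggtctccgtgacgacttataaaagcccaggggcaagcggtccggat
HSPA1B (chr6:31827588-31827737, + strand): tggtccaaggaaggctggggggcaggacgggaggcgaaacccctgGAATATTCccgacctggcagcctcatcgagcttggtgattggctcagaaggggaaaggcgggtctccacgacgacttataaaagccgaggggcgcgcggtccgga
The windows of HSPA1A and HSPA1B were 93.6% identical over 251 aligned columns, and both genes encode the stress-inducible HSP70 protein. The array's probe sets list both symbols together, so their transcripts could not be told apart.

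All but 1 of the 20 probe sets were at or above the median of all sets on each array, 5.31 with sgIL1RN1~3, 5.29 with sgTetO and 5.30 with sgTetOmut on the log2 scale, and 16 lay in the upper quartile of each array. The exception, an HSF1 set, was near the 27 probe sets for Bacillus transcripts, which have no counterpart in human cells and serve here as a background scale. Their highest value was 3.40 with sgIL1RN1~3, 3.40 with sgTetO and 3.29 with sgTetOmut. The targeted gene checked the labels: IL1RN, by probe set 212657_s_at, was at least 12.2-fold higher with sgIL1RN1~3 than with sgTetO and at least 13.2-fold higher than with sgTetOmut. Of the other 4 IL1RN sets none was past 2-fold. HEK293T features were present, 7 of 7 above this background on every array, NEFL and VIM among them, with LHX1 just above it. Of 5 blood and endothelial markers 1 was above it on all arrays and 3 were at it, CD3E among them, of 4 liver markers 1 was above and 2 were at it, ALB among them, and of 6 fibroblast and muscle markers 5 were above.

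HSF1 itself differed little between arrays by its main probe set. The set 202344_at read 6.58 with sgIL1RN1~3, 6.64 with sgTetO and 6.53 with sgTetOmut, so the 3 arrays lay within 0.12 of each other. Its second set, 213756_s_at, read 4.20 with sgIL1RN1~3, 3.29 with sgTetO and 3.28 with sgTetOmut. That set was not above background on either control array. With the Bacillus maximum in place of the control value, it was at least 1.74-fold higher with sgIL1RN1~3 against sgTetO and at least 1.89-fold higher against sgTetOmut. The size depends on how background is treated: with 16 added to the linear values the differences were 0.42 and 0.42 log2 units. The pair of HSF1 sets thus gave different readings on the sgIL1RN1~3 array, 1 of them at a low level.

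HSPA8, which encodes the constitutive HSP70 protein HSC70, stood furthest apart of the members. The annotation of its sets also lists SNORD14C and SNORD14D, small nucleolar RNA genes that lie within HSPA8. Probe set 210338_s_at read 10.56 with sgIL1RN1~3, 9.29 with sgTetO and 9.62 with sgTetOmut. This is a difference of 1.26 log2 units (2.40-fold) from sgTetO and 0.94 (1.91-fold) from sgTetOmut, while the control arrays differed by -0.33 for sgTetO minus sgTetOmut. As a scale for how far the control arrays differ, the SD of sgTetO minus sgTetOmut over the 100 probe sets nearest to it in mean level was 0.13. This SD does not cover how far the sgIL1RN1~3 array differs from the controls. For sets in the upper quartile with sgIL1RN1~3, the central 95% lay between -0.42 and 0.57 for sgIL1RN1~3 minus sgTetO. It was -0.40 to 0.44 for sgIL1RN1~3 minus sgTetOmut. Between the controls it was narrower at -0.32 to 0.21, there for sets in the upper quartile with sgTetO, so the sets compared are not the same. In RNA from a whole culture, more transcript in some cells and more in all cells cannot be told apart. A second set, 208687_x_at, read 11.42 with sgIL1RN1~3, 10.45 with sgTetO and 10.65 with sgTetOmut, and was thus 0.97 and 0.77 higher than on sgTetO and sgTetOmut. The third, 221891_x_at, read 12.37 with sgIL1RN1~3, 11.99 with sgTetO and 12.01 with sgTetOmut. It was 0.39 and 0.37 higher, in the same direction as the others and by less. All 3 HSPA8 sets were highest with sgIL1RN1~3, and remained so under quantile scaling, cyclic loess scaling and with 16 added to the linear values.

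The inducible HSP70 genes HSPA1A and HSPA1B gave readings that disagreed between probe sets. Probe set 200800_s_at, which also lists the testis-enriched relative HSPA1L, read 10.04 with sgIL1RN1~3, 9.25 with sgTetO and 9.18 with sgTetOmut. The sgIL1RN1~3 array was therefore 0.79 (1.73-fold) and 0.86 (1.82-fold) above sgTetO and sgTetOmut, with an SD of 0.13 between the controls at that level. By contrast 202581_at read 12.46 with sgIL1RN1~3, 12.39 with sgTetO and 12.44 with sgTetOmut, a spread of under 0.1. The last set, 200799_at, read 7.67 with sgIL1RN1~3, exactly the same deposited value with sgTetO, and 7.41 with sgTetOmut. Such ties between sgIL1RN1~3 and sgTetO occurred in 6.41% of all probe sets. The set of HSPA1L alone, 210189_at, read 4.29 on each of the 3 arrays. HSPA6, a further HSP70 gene that human cells express mainly under stress and that was singled out after its values were seen, read 3.64 with sgIL1RN1~3, 3.86 with sgTetO and 3.75 with sgTetOmut by 213418_at, just above the Bacillus maximum on each array, and its other set was at background.

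No set of the HSP70 partners DNAJB1, HSPH1 and BAG3, or of HSPB1, was 1.5-fold apart from either control with sgIL1RN1~3. DNAJB1, the J-domain protein that delivers clients to HSP70, read 9.99 with sgIL1RN1~3, 9.72 with sgTetO and 9.79 with sgTetOmut by 200666_s_at, a difference of 0.26 and 0.19. Its second set, 200664_s_at, read 6.76 with sgIL1RN1~3, 6.87 with sgTetO and 6.77 with sgTetOmut, a difference of -0.10 and -0.00, so that its sets did not share a direction. HSPH1, the HSP110 protein that acts as exchange factor of HSP70, read 11.58 with sgIL1RN1~3, 11.64 with sgTetO and 11.68 with sgTetOmut by 206976_s_at, differing by -0.06 and -0.10. The other HSPH1 set, 208744_x_at, read 9.39 with sgIL1RN1~3, 8.88 with sgTetO and 9.09 with sgTetOmut, and was 0.51 and 0.30 higher. BAG3, a cochaperone that links HSP70 to selective autophagy, was flat, with 8.70 with sgIL1RN1~3, 8.68 with sgTetO and 8.71 with sgTetOmut by its single set 217911_s_at. HSPB1, the small heat shock protein HSP27, which holds unfolded proteins without ATP, read 9.29 with sgIL1RN1~3, 8.98 with sgTetO and 9.19 with sgTetOmut by 201841_s_at. Its difference from sgTetOmut, 0.09, was smaller than that between the controls, -0.21 for sgTetO minus sgTetOmut.

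The HSP90 genes encode the stress-responsive form, HSP90AA1, and the constitutive form, HSP90AB1, of the cytosolic chaperone that matures kinases and steroid receptors. HSP90AA1 differed by under 0.1 on 2 of its 4 sets: 214328_s_at read 13.37 with sgIL1RN1~3, 13.31 with sgTetO and 13.37 with sgTetOmut, and 210211_s_at read 12.69 with sgIL1RN1~3, 12.59 with sgTetO and 12.66 with sgTetOmut. The set 211969_at read 11.36 with sgIL1RN1~3, 11.40 with sgTetO and 11.22 with sgTetOmut. Higher with sgIL1RN1~3 was 211968_s_at, at 10.98 against 10.48 with sgTetO and 10.76 with sgTetOmut, by 0.50 and 0.22. HSP90AB1 read 11.65 with sgIL1RN1~3, 11.42 with sgTetO and 11.48 with sgTetOmut by 200064_at, 0.23 and 0.16 higher. Its other set, 214359_s_at, read 10.22 with sgIL1RN1~3, 9.38 with sgTetO and 9.39 with sgTetOmut. There the sgIL1RN1~3 array was 0.84 (1.79-fold) and 0.83 (1.77-fold) higher, while the controls lay 0.01 apart. The constitutive HSP70 and HSP90 genes, HSPA8 and HSP90AB1, were the members whose every set was higher with sgIL1RN1~3 than on both control arrays and of which at least 1 set passed 1.5-fold.

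**Figure D1:**
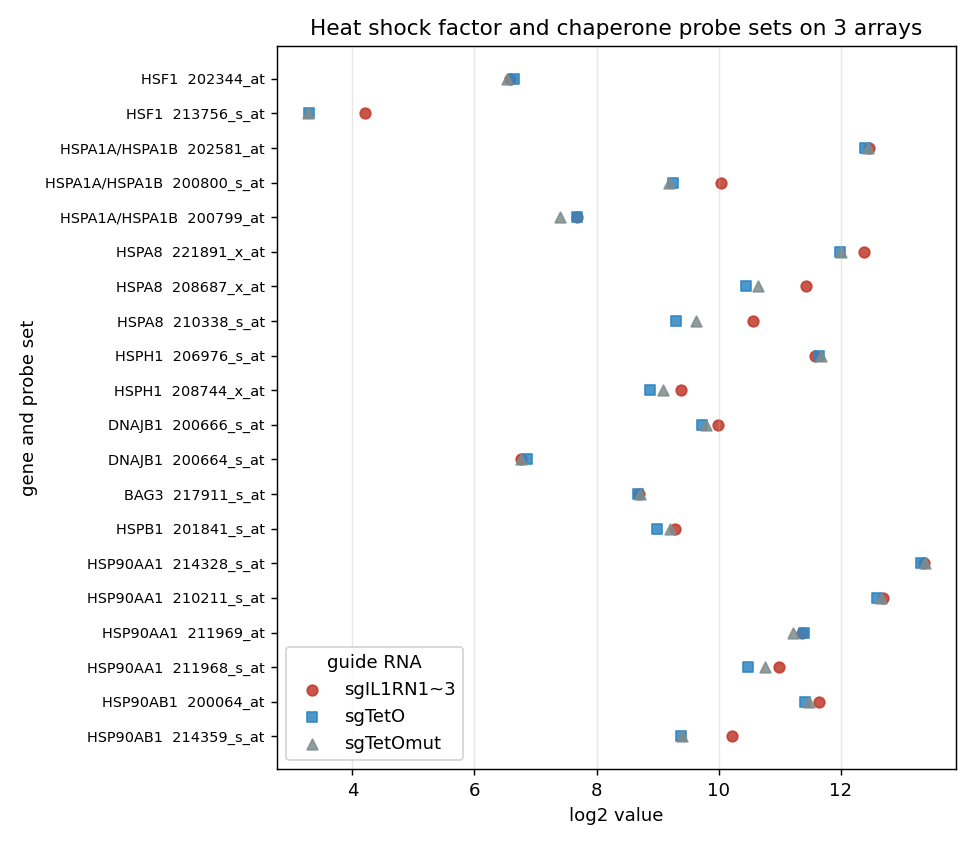
Log2 value (x axis) of each of the 20 member probe sets (rows, with gene and set name) on the 3 arrays, 1 point per array, with red circles for sgIL1RN1~3, blue squares for sgTetO and grey triangles for sgTetOmut. The circles stand clear of both other symbols for 210338_s_at and 208687_x_at of HSPA8, 200800_s_at of HSPA1A and HSPA1B, 214359_s_at of HSP90AB1 and 213756_s_at of HSF1, and the symbols lie close together for BAG3 and for 214328_s_at of HSP90AA1.

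Counted over the probe sets, none of the 20 member sets was at least 2-fold above both other arrays with sgIL1RN1~3, where 5 of all 22215 sets were (0.0225%), and none was 2-fold below both (0.0405% of all sets). Likewise 0 of 20 were 2-fold above or below both others with sgTetO (0.0% and 0.0045% of all sets) or with sgTetOmut (0.239% and 0.0%). A set was counted only where the higher value reached the median of its array. Compared in pairs, 1 member set, 210338_s_at of HSPA8, was at least 2-fold higher with sgIL1RN1~3 than with sgTetO (0.117% of all sets), and 0 were with sgIL1RN1~3 against sgTetOmut (0.0495%). None was 2-fold lower in these pairs (0.131% and 0.297% of all sets). At a limit of 1.5-fold, 4 of the 20 sets were above both controls with sgIL1RN1~3, against 0.639% of all sets: 210338_s_at and 208687_x_at of HSPA8, 214359_s_at of HSP90AB1 and 200800_s_at of HSPA1A and HSPA1B. In the same direction and at the same limit 4 member sets were higher in each pair, against 1.65% of all sets for sgIL1RN1~3 over sgTetO and 0.855% for sgIL1RN1~3 over sgTetOmut. No member set was 1.5-fold below both controls (0.513%) or lower in a pair (1.15% against sgTetO and 1.05% against sgTetOmut). By direction alone 13 of the 20 sets were highest with sgIL1RN1~3 (38.1% of all sets) and 2 were lowest (31.6%), 3 were highest with sgTetO (24.6%) and 13 lowest (35.4%), and 3 were highest with sgTetOmut (27.4%) and 5 lowest (24.0%). Probe sets of 1 gene share its transcripts and are not independent of each other, and the pairs share the sgIL1RN1~3 array.

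The chaperone sets were mostly in the upper range of signal, and they were also set beside other sets in that range. Among the 5554 probe sets in the upper quartile with sgIL1RN1~3, 41 were at least 1.5-fold above both controls (0.738%), and 4 of the 16 member sets in that quartile were among them. That quartile was taken on the sgIL1RN1~3 array itself, so sets high there enter it more readily than sets low there. Ordered by the smaller of the differences from the control arrays, 210338_s_at of HSPA8 was in place 3 of these 5554 sets, 214359_s_at of HSP90AB1 in place 7, 200800_s_at of HSPA1A and HSPA1B in place 12 and 208687_x_at of HSPA8 in place 13. The central 95% of all probe sets lay between -0.55 and 0.60 for sgIL1RN1~3 minus sgTetO and between -0.53 and 0.54 for sgIL1RN1~3 minus sgTetOmut. Above these ranges were the 4 sets named and the low HSF1 set 213756_s_at, 5 of 20 in each pair, and 0 were below.

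**Figure D2:**
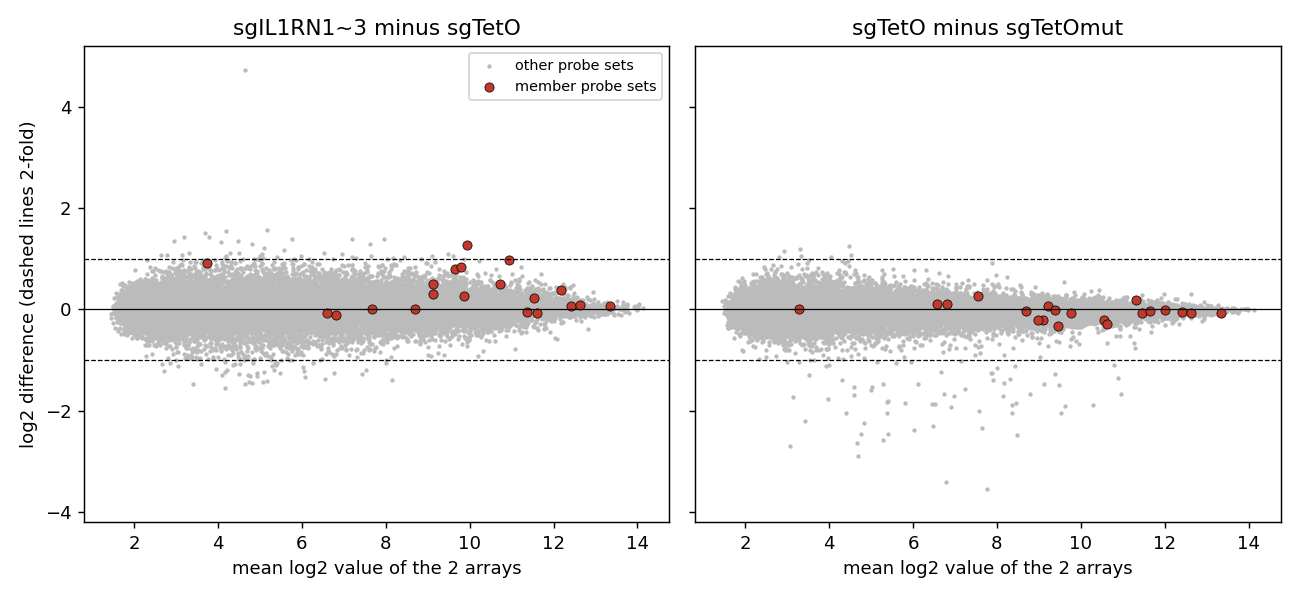
Log2 difference (y axis) against the mean log2 value of the arrays compared (x axis) for all 22215 probe sets (grey) with the 20 member sets in red, for sgIL1RN1~3 minus sgTetO on the left and sgTetO minus sgTetOmut on the right, and dashed lines at 2-fold. On the left 1 member point, 210338_s_at of HSPA8, lies above the upper dashed line, and on the right all member points lie between -0.33 and 0.27.

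The differences with sgIL1RN1~3 were uneven between probe sets of the same gene. Each gene was also read from a single set, the one whose mean of the 3 values was highest, and by this reading the members differed little. The median difference over the 10 members, in which HSPA1A and HSPA1B share 1 set, was 0.06 for sgIL1RN1~3 minus sgTetO and 0.04 for sgIL1RN1~3 minus sgTetOmut, against 0.01 and 0.00 over all 13119 named genes. HSPA8 was the highest of these gene readings, with 0.39 and 0.37, and HSF1, at -0.07 from sgTetO, and HSPH1, at -0.10 from sgTetOmut, were the lowest. The 11 other sets had medians of 0.51 and 0.30. With the mean of all sets of a gene in place of the single set, the median over members was 0.28 and 0.24.

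How far sets of 1 gene part was measured as the difference of another set minus that of the set standing for the gene. Over 5020 such pairs above background, the central 95% lay between -0.65 and 0.73 for sgIL1RN1~3 minus sgTetO, with a median of 0.04, and between -0.60 and 0.64 for sgIL1RN1~3 minus sgTetOmut, with a median of 0.03. Between the controls the range was narrower, -0.45 to 0.45. Of the 10 member sets that could be compared in this way, 210338_s_at of HSPA8 was 0.88 and 0.57 further up than 221891_x_at, and 200800_s_at was 0.72 and 0.84 further up than 202581_at. For HSP90AB1 the gap was 0.61 and 0.66. Of these 10 sets, 1 lay above the central range against sgTetO, that of HSPA8, and 2 against sgTetOmut, 200800_s_at and that of HSP90AB1. A single gene can thus read as nearly level or as 1.5-fold higher on this array according to the set chosen.

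The chip's own control sets for the 5′ end and the middle of transcripts were also higher on the sgIL1RN1~3 array. These sets measure the 5′ end, the middle and the 3′ end of the ACTB and GAPDH transcripts, which are abundant in most cells. With sgIL1RN1~3 the ACTB sets were 0.95 higher than with sgTetO at the 5′ end, 0.69 at the middle and 0.06 at the 3′ end, and against sgTetOmut 0.82, 0.64 and 0.07. The GAPDH sets were 0.84, 0.58 and -0.01 away from sgTetO and 0.66, 0.54 and 0.03 away from sgTetOmut in that order. The 4 chaperone sets past 1.5-fold differed by 0.77 to 1.26, and the 5′ control sets by 0.66 to 0.95. The positions of the chaperone probe sets along their transcripts were not used here, and the part of this shift in the chaperone results was not tested.

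**Figure D3:**
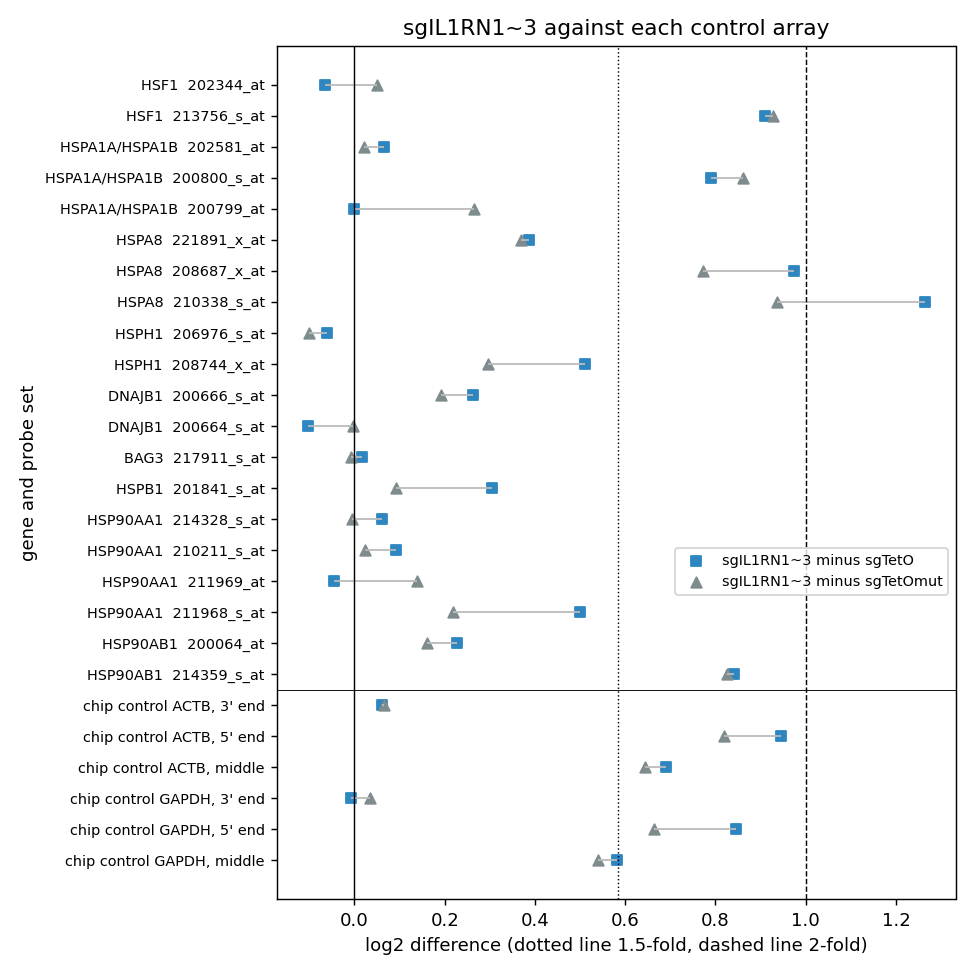
Log2 difference of sgIL1RN1~3 from sgTetO (blue squares) and from sgTetOmut (grey triangles) on the x axis, for the 20 member probe sets above the horizontal line and the ACTB and GAPDH chip controls below it, with a dotted line at 1.5-fold and a dashed line at 2-fold. Within HSF1, HSPA1A and HSPA1B, HSPA8 and HSP90AB1 some sets lie near the 5′ chip controls, at 0.66 to 0.95, and others near the 3′ chip controls, at -0.01 to 0.07, or between.

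Between the control guides no chaperone set was 1.5-fold apart. The largest differences of member sets for sgTetO minus sgTetOmut were -0.33 for 210338_s_at of HSPA8, -0.28 for 211968_s_at of HSP90AA1 and 0.27 for 200799_at of HSPA1A and HSPA1B. All 20 lay inside the central 95% of all probe sets, -0.45 to 0.39. Among the sets in the upper quartile with sgTetO that range was narrower, -0.32 to 0.21, and 1 of the 16 member sets there, 210338_s_at of HSPA8, lay below it and 0 above. At 1.5-fold 0 of 20 were apart in either direction (0.072% of all sets higher and 0.495% lower with sgTetO, and 0.0% and 0.252% at 2-fold). The median over the 10 members was -0.04, against -0.01 over all named genes. On the same arrays genes of the interferon response, which encode antiviral proteins, were far apart: over the 9 measured of 10 listed, the median of sgTetO minus sgTetOmut was -2.04, and RSAD2, an antiviral enzyme, was at -3.55. Of the 9, 8 were at least 2-fold lower with sgTetO, and MX1, at a low level of 3.53 with sgTetO and 4.03 with sgTetOmut, differed by -0.50. Each member set thus differed by 0.33 or less between the control arrays, on which most of these interferon genes stood at least 2-fold apart.

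Outside the members, 9 lists of chaperones and their partners held 80 genes, of which 73 had a named probe set, and 120 probe sets apart from those of the members. Of these sets 0 were at least 2-fold above both controls with sgIL1RN1~3 and 0 below, against 0.0225% and 0.0405% of all probe sets. At 1.5-fold 2 were above and 0 below, against 0.639% and 0.513% of all probe sets. The sets above were those of cochaperones of HSP90: STIP1, the adaptor that passes clients between HSP70 and HSP90, and FKBP4, an immunophilin of steroid receptor complexes. STIP1 read 8.88 with sgIL1RN1~3, 8.19 with sgTetO and 8.22 with sgTetOmut by 213330_s_at, and its second set was 0.41 and 0.37 higher. FKBP4, singled out after its values were seen, was 0.69 and 0.61 higher by 200894_s_at, and 0.27 and -0.00 away by its other set, 200895_s_at. Over the genes of the 9 lists the median difference was 0.02 from sgTetO and -0.05 from sgTetOmut.

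The lists differed in their medians, given here for sgIL1RN1~3 minus sgTetO and then minus sgTetOmut. The 10 measured HSP90 cochaperones had 0.22 and 0.05, with UNC45A, a myosin-folding cochaperone, 0.54 and 0.44 higher after STIP1. The 11 measured chaperones of the endoplasmic reticulum had 0.14 and 0.11, with HYOU1 0.52 and 0.40 and SDF2L1 0.23 and 0.20 higher. The 14 genes of the TRiC chaperonin, which folds actin and tubulin, and of prefoldin, which feeds it, had 0.01 and -0.11, and the first of these was -0.03 under quantile and -0.01 under cyclic loess scaling and -0.12 with the mean of all sets of a gene. CCT7 was 0.55 and 0.41 higher, CCT3 0.22 and 0.28 higher, and PFDN2 differed by -0.40 and -0.17. The 9 measured further J-domain proteins had -0.04 and -0.08, with DNAJC2, a ribosome-associated chaperone, at -0.35 and -0.29 and DNAJA2 at -0.18 and -0.21. DNAJA4 was at 0.04 and 0.22 and DNAJB6 at 0.14 and 0.00. The pathway genes therefore lay on both sides of the controls.

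The medians of the remaining lists, apart from the interferon list, lay between -0.09 and 0.21. The interferon list had -0.09 and -2.63. The 6 further exchange factors had medians of 0.05 and -0.07: BAG4 was at -0.64 and -0.49, BAG6 at 0.15 and 0.19, and BAG1 at 0.07 and -0.06, with its other set at 0.50 and 0.29. The 6 mitochondrial chaperones had 0.02 and -0.05, with TRAP1, the mitochondrial HSP90, at 0.29 and 0.16, GRPEL1 at -0.20 and -0.12, and DNAJA3 at 0.16 and -0.03. Among 7 other HSP70 and HSP110 genes, with -0.01 and -0.09, HSPA2 was at 0.02 and 0.23, and HSPA1L is read from a set it shares with HSPA1A and HSPA1B. The sets of HSPA4, a relative of HSPH1, disagreed in direction: 208815_x_at, which stands for the gene, was at -0.23 and -0.17 and 211015_s_at at -0.05 and -0.06, while 208814_at was at 0.91 and 0.55 and 211016_x_at at 0.47 and 0.19. Of 7 measured small heat shock proteins besides HSPB1, 6 were at background on all 3 arrays, CRYAB, HSPB2 and HSPB3 among them, and HSPB8 was at 0.17 and -0.08; the list had -0.04 and -0.08. The 3 measured genes of the HSF family and its binding protein had 0.21 and 0.08: HSF4, which read 4.08 with sgIL1RN1~3, was 0.57 and 0.08 higher, and HSBP1, which binds HSF1, was 0.21 and 0.09 higher by 200941_at and at -0.01 and -0.13 by 200942_s_at. The 10 measured other genes of proteotoxic stress had 0.03 and 0.14, with VCP, an ATPase that extracts proteins for degradation, 0.79 and 0.85 higher by 208649_s_at and 0.02 and 0.01 by 208648_at, and JUN 0.61 and 0.46 higher. That JUN reading is from 201466_s_at, and its other sets were 0.47 and 0.51 (201465_s_at), 0.16 and 0.06 (201464_x_at) and 0.13 and 0.20 (213281_at) higher. VCP and JUN were, as with the chaperones, uneven between their sets.

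**Figure D4:**
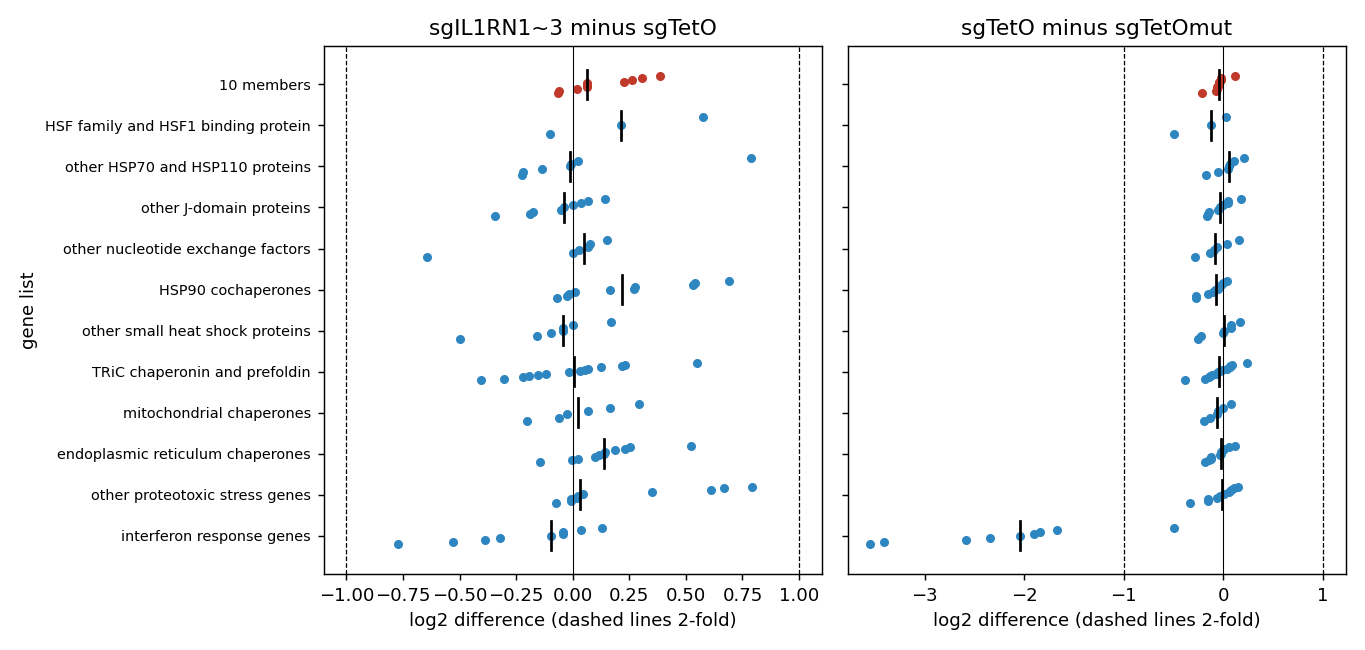
Log2 difference (x axis) of each gene in the 10 members (red) and in 11 lists (blue), 1 point per gene, with a black bar at the median of each list, for sgIL1RN1~3 minus sgTetO on the left and sgTetO minus sgTetOmut on the right, and dashed lines at 2-fold. On the left all points lie between -0.77 and 0.79, and on the right the interferon list stands apart with a median of -2.04, while the members lie between -0.21 and 0.12.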

How the data were processed

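RNA of 3 HEK293T cultures was measured on 3 single-channel Affymetrix arrays. The deposited table holds log2 values per probe set, a unit taken from their range, 1.36 to 14.52. The authors used affy, per the submitters' processing notes. Its version and the normalization and summary steps were not given in the sources used here. When sorted, the columns kept within 0.104 of their mean, so that a difference is relative to most genes.

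Probe sets were named from GEO's platform annotation: 19064 had 1 symbol, 1043 several and 2108 were unlisted, besides 62 chip controls. Members and lists were chosen with earlier results of these data known. Named genes were all members and, per list, the 2 furthest from, and the 2 furthest above, the mean of both controls on sgIL1RN1~3; reading against the upper quartile, and scaling alternatives for every member set, were added after values were seen. With 1 array per guide no test was possible, and the number of arrays limits precision. Counting was tested on simulated data. Python 3.11.15, numpy 2.4.6, pandas 2.3.3, Biopython 1.88 and, for alternative scaling, limma 3.58.1 in R 4.3.3 were used.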

Additional observations from a re-analysis of the deposited data

How the results depend on the processing

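With a limit of 1.5-fold in place of 2-fold, 4 member sets in place of 0 were above both controls with sgIL1RN1~3, 4 in place of 1 were higher than with sgTetO and 4 in place of 0 higher than with sgTetOmut. The single set past 2-fold against sgTetO, 210338_s_at of HSPA8, was not counted at 3-fold (0) or where only sets with 1 symbol were used (0), since it lists several. With the mean of all sets of a gene, the median over members was 0.28 from sgTetO, against 0.06 by the single set, and 0.24 from sgTetOmut, against 0.04. The other 79 counts stayed within 1.5 times under their alternatives, which included quantile and cyclic loess scaling, 16 added to the linear values and no minimum level, and the other 13 medians over members moved by less than the SD between the control arrays. So did 140 values of single members and 162 list medians, while 21 and 3 moved by more. The 3 were the TRiC and prefoldin median from sgTetO with the mean of all sets of a gene (-0.12 against 0.01), and the interferon median from sgTetOmut with that mean and with 16 added (-2.18), nearer to 0 than -2.63 in both. Of the 20 sets, 18 kept their sign under all scalings from sgTetO, 18 from sgTetOmut and 16 between the controls; those that did not were within 0.06 of 0. No paired analysis was possible because each guide has 1 array. Probe sets of low signal, such as 213756_s_at of HSF1, are limited by background, and shared sets cannot separate HSPA1A from HSPA1B.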

Other observations

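The 41 probe sets in the upper quartile that were at least 1.5-fold above both controls with sgIL1RN1~3 were looked through after their values were seen. Besides the 4 chaperone sets they included 2 sets of ENO1, the glycolytic enzyme enolase, MCM7, a subunit of the replicative helicase, and ACLY, which makes cytosolic acetyl-CoA. The MCM7 set 210983_s_at read 8.83 with sgIL1RN1~3, 7.86 with sgTetO and 7.87 with sgTetOmut. Among genes of chromatin and RNA, SSRP1, a subunit of the histone chaperone FACT, was 0.85 and 0.79 above sgTetO and sgTetOmut by 200956_s_at, SMARCA4, an ATPase of chromatin remodelling, 0.68 and 0.73 by 215714_s_at, and NONO, an RNA-binding protein, 0.64 and 0.68 by 208698_s_at. EIF4B, a translation initiation factor, read 11.63 with sgIL1RN1~3, 10.80 with sgTetO and 10.98 with sgTetOmut. In the opposite direction 13 sets of the quartile were at least 1.5-fold below both controls (0.234%), 0 of them chaperone members. The quartile was taken on the sgIL1RN1~3 array itself, which favours sets high there, so the 41 and the 13 are not a balanced count. Over all probe sets the shares were closer, 0.639% above both controls and 0.513% below. Genes named here were picked because sets passed the limit, and their other sets are not shown and may read nearly level. Chip controls were left out of the 41. The ACTB 5′ set was 0.95 and 0.82 above sgTetO and sgTetOmut, and its middle set 0.69 and 0.64. The GAPDH 5′ set was 0.84 and 0.66 above them. Such values pass 1.5-fold, while the GAPDH middle set and the 3′ sets did not. The part of this shift in the listed sets was not tested.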
